A study of Homo sapiens with 9 samples.

Results

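The melanocyte pigment and melanosome genes were followed across MDA-MB435S melanoma cells with an empty vector, with the tumour suppressor WWOX, or with the WWOX-WFPA mutant. The list of 37 genes covers the transcription factors of the pigment lineage, the enzymes that make melanin, the proteins and transporters of the melanosome, the receptors of the melanocyte, and the machinery that builds and moves the organelle. A gene was measured if the array holds at least 1 probe set annotated to it alone, and where it holds several the one brightest on average across the 9 arrays was taken. On this rule 35 of the 37 genes were measured, out of 19752 genes on the array. DCT and SLC24A5 have no probe set of their own in the annotation used (the probe set that carries SLC24A5 also carries CTXN2) and were not analysed here.

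The study holds 9 Affymetrix U133 Plus 2.0 arrays, with 3 arrays for each of 3 groups: MDA-MB435S cells with WWOX (WWOX), cells with the WFPA form (WFPA), and cells with the empty vector (EV). All cells came from 1 parental line and were stable clones made with a lentiviral vector under G418 selection, and the WFPA form is altered in the first WW domain, through which WWOX binds its partners. The number of clones behind each group is not given in the sources used here, so an effect of the construct and an effect of the clone cannot be told apart. Nor is it said whether the 3 arrays of a group came from separate cultures, so the p-values measure only the spread between these arrays, which may be technical.

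The deposited labels of the groups conflict. Groups were taken from the sample titles, but a second field, on the vector, gives no insert for the arrays titled WWOX and wild-type WWOX for the arrays titled EV, and the EV titles carry the addition wox+. The WWOX gene itself read 10.80, 10.83 and 10.34 on the WWOX arrays and 10.35, 10.12 and 10.25 on the WFPA arrays, against 9.26, 8.80 and 8.74 on the EV arrays (log2 intensity). It was 1.72 higher on the log2 scale in WWOX than in EV (limma, SE 0.174, adjusted p = 0.000295) and 1.30 higher in WFPA than in EV (SE 0.174, adjusted p = 0.00285), and between WWOX and WFPA it differed by 0.42 (adjusted p = 0.141). A second WWOX probe set gave larger changes the same way, 3.68 in WWOX and 3.14 in WFPA against EV, both called. The other 3 WWOX probe sets were not called in any comparison. Of these, 1 gave means of 8.87 in WWOX, 8.38 in WFPA and 9.11 in EV cells, with WFPA against EV at -0.73 (adjusted p = 0.0433), 1 averaged 6.11 in WWOX, 5.98 in WFPA and 5.98 in EV cells, and 1 averaged 5.13, 5.50 and 3.91 in the same order of groups. The 2 called probe sets follow the titles and not the vector field, but not all probe sets of the gene do, and every direction reported rests on the titles.

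A pigment cell makes melanin inside the melanosome, an organelle related to the lysosome. MITF, the transcription factor on which the lineage depends, switches on the melanin enzymes TYR, TYRP1 and DCT, the matrix protein PMEL that forms the fibrils on which pigment is laid down, and many genes of melanosome transport. Melanoma cells keep this programme to different degrees, and lines that have lost melanin can keep MITF. The MDA-MB435 line was long taken for breast cancer and is now known as a melanoma line.

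MITF binds short E-box sequences, CATGTG (read on the other strand as CACATG) and the palindrome CACGTG. Both were searched on both strands in the 250 bases before each RefSeq start site (promoter sequences of GRCh38.p14), and the 2 motifs cannot share bases. At least 1 of them lay in 19 of 47 promoters of the listed genes (40.4%), which came from 17 of the 30 genes with a promoter entry, against 15.2% of all 35116 promoters. CATGTG lay in 15 of the 47 (31.9%), against 9.42% of all promoters, and CACGTG in 4 of the 47 (8.51%), against 6.34%. A match is a description of the letters in this window and not of a bound site. The sequences printed here, with the motif in capitals and read 5′ to 3′ on the strand of the gene, are those of genes on which the results turn: the 2 measured melanin enzymes, whose levels stayed low, and the 3 genes called against EV alone or in WFPA cells too.
TYR, chr11:89177751-89177796, plus strand, motif 104 bases before the start: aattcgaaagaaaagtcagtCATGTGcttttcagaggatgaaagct
TYRP1, chr9:12693221-12693266, plus strand, motif 144 bases before the start: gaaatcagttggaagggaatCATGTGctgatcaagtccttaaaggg
GPNMB, chr7:23246693-23246738, plus strand, motif 62 bases before the start: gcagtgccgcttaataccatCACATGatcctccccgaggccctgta
HPS5, chr11:18322230-18322275, minus strand, motif 115 bases before the start: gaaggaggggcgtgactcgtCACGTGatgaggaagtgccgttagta
ATP7A, chrX:77910535-77910580, plus strand, motif 138 bases before the start: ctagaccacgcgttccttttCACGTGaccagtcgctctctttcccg
The windows of MITF, IRF4, CAPN3, QPCT and MYO5A, which were called against both other groups, hold neither motif, and TBX2, PMEL, SLC45A2, RAB38, HPS1, AP3B1 and AP3D1 have no promoter entry in the table used.

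In WWOX cells the pigment genes that changed by at least 2-fold were all higher. Against the mean of EV and WFPA, 6 of the 35 measured genes were called higher (17.1%) and 0 lower. These were IRF4, CAPN3, QPCT, TBX2, MYO5A and MITF. A call needed both a change of at least 2-fold and an adjusted p under 0.05 in limma (Benjamini-Hochberg, over all 54613 probe sets). By the same rule 1.94% of all genes were called higher and 2.06% lower. With no fold limit 15 of the 35 were higher and 3 lower, against 9.49% and 10.9% of all genes, and 17 passed in neither direction. The median change of the 35 genes was 0.31 on the log2 scale, and that of all genes was 0.04. In bulk RNA, more cells that express a gene and more RNA of it per cell cannot be told apart.

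The same 6 genes were called in WWOX against WFPA, and 9 were called in WWOX against EV, the other 3 being ATP7A, HPS5 and GPNMB. Against EV this is 9 of 35 higher (25.7%) and 0 lower, beside 2.11% and 1.79% of all genes. Against WFPA it is 6 of 35 higher and 0 lower, beside 2.01% and 2.71%. With no fold limit 15 were higher and 1 lower against EV (6.97% and 7.87% of all genes), and 13 higher and 2 lower against WFPA (9.37% and 11% of all genes). In WFPA against EV only ATP7A was called, higher, beside 1.53% of all genes higher and 0.694% lower. With no fold limit that comparison had 5 higher and 2 lower (4.95% and 3.68% of all genes). The median changes were 0.33 against EV, 0.28 against WFPA and 0.01 in WFPA against EV, where all genes had 0.03, 0.07 and -0.04. The comparisons share arrays, so their calls are not independent of each other.

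**Figure D1:**
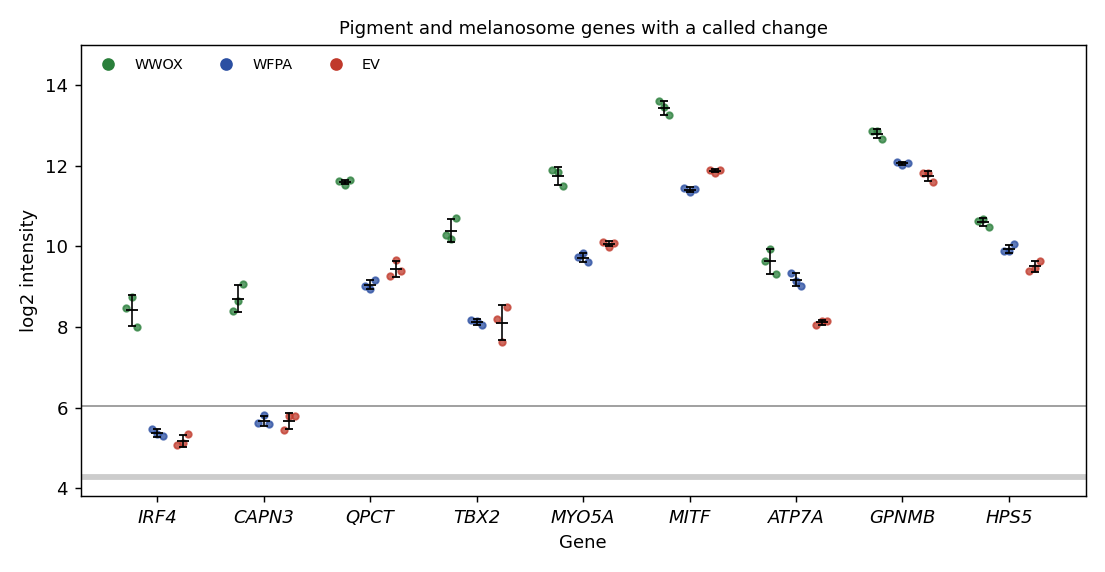
Log2 intensity (vertical axis) of the 9 pigment and melanosome genes called in at least 1 comparison, with WWOX, WFPA and EV from left to right within a gene. Each point is 1 array, and the black marks give the group mean with the SD as error bar. The light grey band is the range of the array lower quartiles (4.23 to 4.34) and the darker band that of the array medians (6.03 to 6.05). For IRF4, CAPN3, QPCT, TBX2, MYO5A and MITF all 3 WWOX arrays lie above all 6 others, and for ATP7A the WFPA arrays lie near the WWOX arrays.

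Among the transcription factors, MITF, IRF4 and TBX2 were higher in WWOX cells, and PAX3 and TFAP2A were not called. MITF read 13.60, 13.45 and 13.26 on the WWOX arrays, 11.45, 11.33 and 11.43 on the WFPA arrays, and 11.89, 11.83 and 11.90 on the EV arrays. It was strongly lit in all 3 groups, and no WWOX array overlapped the others. The change against the mean of EV and WFPA was 1.80 on the log2 scale, or 3.48-fold (SE 0.0875, adjusted p = 2.43e-06). WFPA cells had slightly less MITF than EV cells (-0.47, adjusted p = 0.0266), below the 2-fold limit. A second MITF probe set gave a change of 2.21 in WWOX cells. The dimmest gave 3.56, with WFPA and EV means of 3.31 and 3.28, under the lower quartile of every array, so that the size of this last change is uncertain.

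IRF4, which acts with MITF on the tyrosinase gene and is tied to hair and skin colour, read 8.47, 8.75 and 8.0 in WWOX cells, against 5.48, 5.33 and 5.29 in WFPA and 5.07, 5.12 and 5.34 in EV cells. The WWOX arrays lay well above the array median and the WFPA and EV arrays below it. The change was 3.14, or 8.80-fold (SE 0.152, adjusted p = 2.4e-06), and EV and WFPA differed by 0.19 (adjusted p = 0.636). The other 2 IRF4 probe sets gave far smaller values, 0.43 (adjusted p = 0.00836) and 0.01 (adjusted p = 0.968), the last at levels of 2.24 to 2.40 in the 3 groups.

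TBX2, a T-box repressor of the pigment lineage, read 10.28, 10.18 and 10.71 in WWOX cells, 8.17, 8.16 and 8.05 in WFPA cells, and 8.20, 7.63 and 8.49 in EV cells. The EV arrays were the most scattered (SD 0.44, n = 3), yet all lay below the WWOX arrays. The change was 2.27, or 4.83-fold (SE 0.186, adjusted p = 6.01e-05). A second probe set was called with it (1.63), and the other 2 were at 0.41 and 0.47, under 2-fold.

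PAX3, an activator of MITF, averaged 10.3 ± 0.146 in WWOX, 10.2 ± 0.0752 in WFPA and 9.96 ± 0.164 in EV cells (SD, n = 3 each), and its change of 0.25 did not pass (95% interval 0.02 to 0.47 without adjustment, adjusted p = 0.126). The other PAX3 probe sets went the other way, at -0.17, -0.15 and -0.02, and none passed. TFAP2A, an AP-2 factor that acts beside MITF, set EV apart instead at its brightest probe set. It was higher in WFPA than in EV by 0.60 (adjusted p = 0.00868) and in WWOX than in EV by 0.43 (adjusted p = 0.025), both under 2-fold. WWOX and WFPA differed in TFAP2A by -0.17 (adjusted p = 0.285). At the next TFAP2A probe set the changes against EV were 0.31 in WFPA (adjusted p = 0.392) and 0.07 in WWOX (adjusted p = 0.847). At the dimmest they were 0.02 and 0.01, and neither passed.

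QPCT and CAPN3, enzymes outside the melanin pathway, were called higher in WWOX cells against both other groups. QPCT, the glutaminyl cyclase that closes the N-terminal glutamine of secreted peptides into a ring, read 11.61, 11.53 and 11.64 in WWOX cells, 9.02, 8.95 and 9.18 in WFPA cells, and 9.26, 9.65 and 9.38 in EV cells. Its change was 2.35, or 5.10-fold (SE 0.101, adjusted p = 1.18e-06). CAPN3, a calcium-dependent protease best known from muscle, read 8.40, 8.63 and 9.06 in WWOX cells, 5.61, 5.82 and 5.60 in WFPA cells, and 5.43, 5.78 and 5.79 in EV cells. The EV and WFPA arrays of CAPN3 lay under the array median. Its change was 3.03, or 8.15-fold (SE 0.150, adjusted p = 2.71e-06), and both other probe sets were called as well (1.43 and 2.23).

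**Figure D2:**
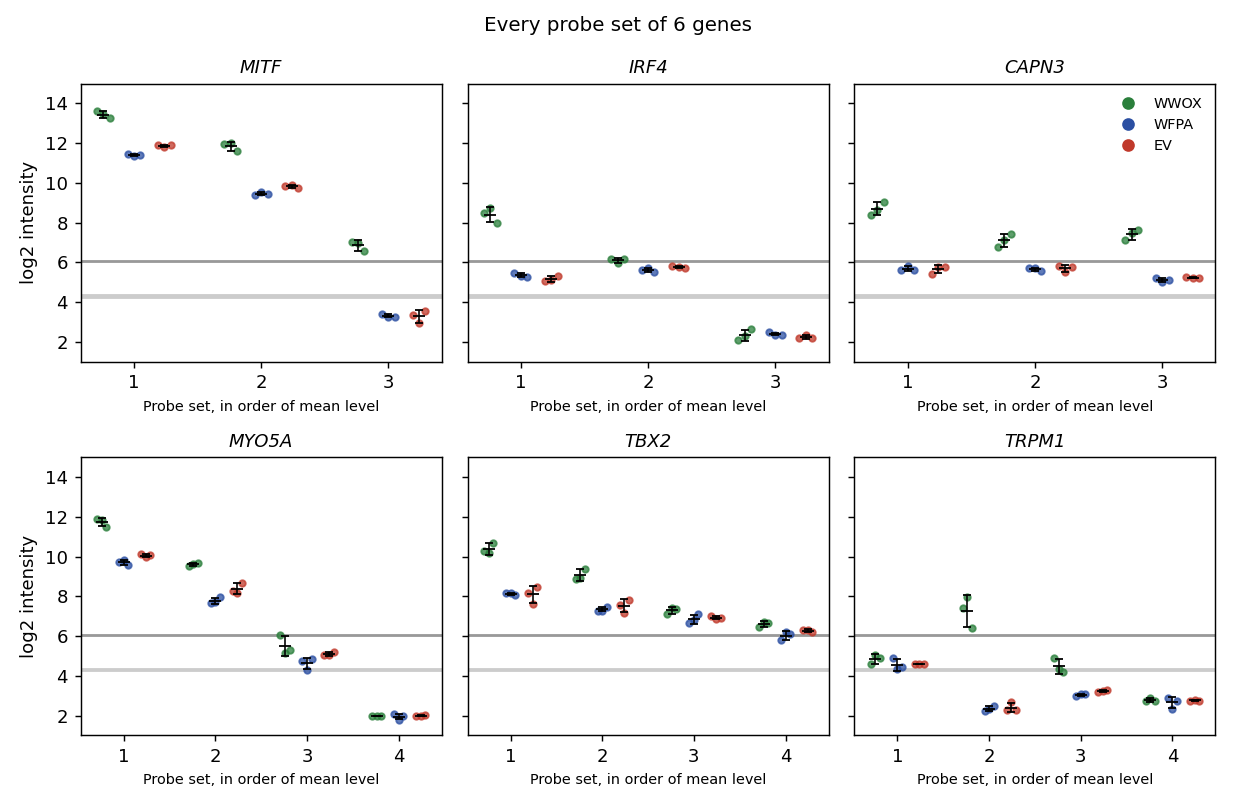
Log2 intensity of every probe set of MITF, IRF4, CAPN3, MYO5A, TBX2 and TRPM1, in order of mean level from left to right, with WWOX, WFPA and EV from left to right. Each point is 1 array, and the black marks give the group mean with the SD as error bar. The light grey band is the range of the array lower quartiles and the darker band that of the medians. All 3 probe sets of MITF and of CAPN3 are higher in WWOX cells, while 1 of 3 is called for IRF4, and for TRPM1 2 of 4 are called but not the brightest.

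No change was called for either measured melanin enzyme. TYR, tyrosinase, which carries out the first step of melanin synthesis, read 5.32, 6.04 and 5.89 in WWOX cells, 5.46, 5.36 and 5.46 in WFPA cells, and 5.46 on each of the 3 EV arrays. One WWOX array lay below all EV arrays and the other 2 above them. The change was 0.31 (95% interval -0.01 to 0.63, adjusted p = 0.173), an interval that leaves out a 2-fold rise of intensity at this probe set. Its group means lie under the array median and 3 arrays share 1 exact value, so the size of any change in RNA is uncertain. The other 2 TYR probe sets gave 0.18 and -0.13, neither passing. TYRP1, the related enzyme of the same pathway, averaged 2.21 ± 0.162 in WWOX, 2.31 ± 0.367 in WFPA and 2.26 ± 0.0545 in EV cells (SD, n = 3 each), with single arrays at 2.04, 2.36 and 2.23 in WWOX, 2.03, 2.18 and 2.73 in WFPA, and 2.23, 2.32 and 2.23 in EV cells. All of these are under the lower quartile of the arrays. Its change was -0.07 (95% interval -0.41 to 0.26, adjusted p = 0.77). Both enzymes carry CATGTG in the windows printed above.

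PMEL and MLANA, the best known melanosome proteins, were not called in any comparison either. PMEL read 5.77 on all 3 WWOX arrays, against 6.22, 5.72 and 5.78 in WFPA and 5.63, 6.0 and 5.77 in EV cells, for a change of -0.08 (95% interval -0.37 to 0.20, adjusted p = 0.697). MLANA, the antigen also called MART-1, read 4.09, 4.38 and 4.83 in WWOX cells, 4.25, 4.38 and 4.62 in WFPA cells, and 4.48, 4.12 and 4.53 in EV cells, for a change of 0.04 (95% interval -0.35 to 0.42, adjusted p = 0.907). The groups overlapped for both genes. PMEL had exactly the same value on 4 arrays, and 5 of the 35 genes had 1 exact value on at least 3 arrays. Of all probe sets 15.9% did so, 85% of them under the array median, so a spread of 0 there is a property of the deposited values.

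GPR143 and TSPAN10 were not called in any comparison. GPR143, the melanosomal receptor altered in ocular albinism, was brightly lit in every group (11.5 ± 0.156 in WWOX, 11.4 ± 0.0359 in WFPA and 11.3 ± 0.117 in EV cells, SD, n = 3 each), and its change was 0.08 (adjusted p = 0.605). TSPAN10, a tetraspanin, was at 7.13 ± 0.298, 7.13 ± 0.295 and 7.40 ± 0.298 in the same order of groups, with a change of -0.14 (adjusted p = 0.643).

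GPNMB, a glycoprotein related to PMEL, differed from them. It read 12.86, 12.85 and 12.65 in WWOX cells, 12.08, 12.02 and 12.06 in WFPA cells, and 11.82, 11.81 and 11.60 in EV cells, so that the 3 groups did not overlap. It was called against EV (1.05, SE 0.0978, adjusted p = 0.000177), and against WFPA it passed the adjusted p at less than 2-fold (0.74, adjusted p = 0.00114). WFPA was above EV by 0.31, which did not pass (adjusted p = 0.109). The second GPNMB probe set was also called in WWOX against EV (1.22). There WFPA against EV did pass, at less than 2-fold (0.59, adjusted p = 0.014). Without EV replicate 3 the first probe set stood at 0.98, under the 2-fold limit.

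**Figure D3:**
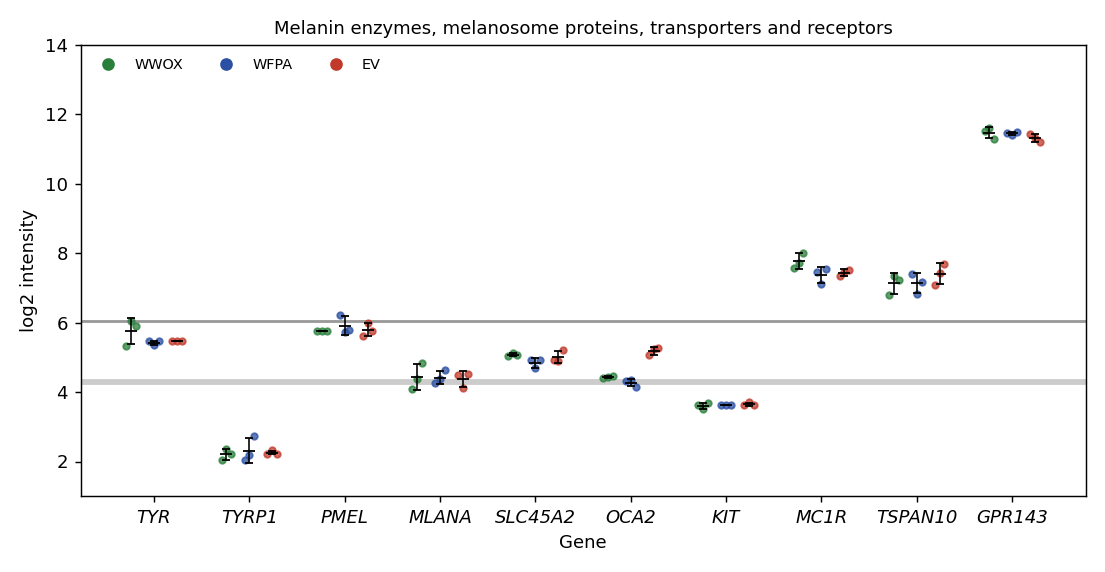
Log2 intensity of 10 melanin enzymes, melanosome proteins, transporters and receptors, with WWOX, WFPA and EV from left to right within a gene. Each point is 1 array, and the black marks give the group mean with the SD as error bar. The light grey band is the range of the array lower quartiles and the darker band that of the medians. TYR, PMEL, MLANA and TYRP1 lie about or under the median in all groups, and GPR143 lies far above it in all groups.

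Among the transporters, ATP7A was higher and OCA2 lower in both WWOX and WFPA cells than in EV cells. ATP7A, the copper pump that supplies tyrosinase with its metal, read 9.64, 9.93 and 9.32 in WWOX cells, 9.34, 9.14 and 9.02 in WFPA cells, and 8.05, 8.16 and 8.15 in EV cells. WWOX and WFPA arrays overlapped, and all lay above EV. It was called in WWOX against EV (1.51, or 2.86-fold, SE 0.153, adjusted p = 0.000293) and in WFPA against EV (1.05, or 2.07-fold, SE 0.153, adjusted p = 0.00436), and WWOX against WFPA gave 0.46 (adjusted p = 0.0733). Against the mean of EV and WFPA it fell just short of the limit at 1.98-fold. Without WFPA replicate 1 the WFPA change was 0.96, and the second ATP7A probe set did not pass in any comparison.

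OCA2, a melanosome membrane protein altered in oculocutaneous albinism, averaged 4.42 ± 0.0279 in WWOX, 4.27 ± 0.111 in WFPA and 5.19 ± 0.112 in EV cells (SD, n = 3 each), close to the lower quartile in the first 2 groups. It was lower by less than 2-fold in WWOX (-0.76, adjusted p = 0.000985) and in WFPA (-0.92, adjusted p = 0.000676) than in EV. SLC45A2, a melanosome transporter related to those of sucrose, lay between 4.68 and 5.22 on the 9 arrays and changed by 0.14 (adjusted p = 0.36).

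The receptors did not rise to a call at the probe sets that stand for them. MC1R, the receptor of melanocyte-stimulating hormone, read 7.56, 7.72 and 8.02 in WWOX cells, 7.44, 7.12 and 7.55 in WFPA cells, and 7.33, 7.46 and 7.51 in EV cells. Its change of 0.36 did not pass after adjustment (SE 0.128, adjusted p = 0.0896), and its 95% interval without adjustment was 0.07 to 0.65. KIT, the stem cell factor receptor, was dim throughout (3.61 on 6 of 9 arrays), under the lower quartile, with a change of -0.02 (adjusted p = 0.881).

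EDNRB, the endothelin receptor of melanoblasts, set EV apart as ATP7A did. It averaged 9.64 ± 0.188 in WWOX, 9.54 ± 0.0753 in WFPA and 8.77 ± 0.226 in EV cells (SD, n = 3 each). It was higher than in EV by 0.87 in WWOX (adjusted p = 0.00367) and by 0.77 in WFPA (adjusted p = 0.0113), both under 2-fold, and WWOX and WFPA differed by 0.11 (adjusted p = 0.637). At its dimmest probe set the changes against EV were 1.72 in WWOX and 1.77 in WFPA, past the limit in both, and the probe set between them gave 1.02 in WWOX and 0.71 in WFPA.

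TRPM1, a cation channel of melanocytes and the retina, was not called at its brightest probe set (0.27, adjusted p = 0.239), where all 9 arrays lay between 4.33 and 5.06. Another probe set of the gene, singled out after its values were seen, read 7.43, 7.96 and 6.41 in WWOX cells, 2.23, 2.33 and 2.48 in WFPA cells, and 2.27, 2.68 and 2.27 in EV cells. The WWOX arrays were above the array median and the 6 others far under the lower quartile, so the change of 4.89 (SE 0.284, adjusted p = 7.02e-06) is uncertain in size. The next TRPM1 probe set was called at 1.35 (adjusted p = 0.000281). Of all 83 probe sets of the listed genes, 14 were called higher and 0 lower in WWOX cells against the mean of EV and WFPA, where 1.46% of all 54613 probe sets were called higher and 1.77% lower.

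Of the genes that move melanosomes, MYO5A was called in WWOX cells. This myosin motor carries melanosomes along actin. It read 11.90, 11.84 and 11.50 in WWOX cells, 9.72, 9.83 and 9.61 in WFPA cells, and 10.11, 9.99 and 10.07 in EV cells, with no overlap. The change was 1.86, or 3.62-fold (SE 0.105, adjusted p = 6.04e-06). A second probe set was called (1.53), the next gave 0.64 (adjusted p = 0.0677), and the dimmest, at about 2 in every group, gave 0.02.

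The other 3 transport genes changed by less than 2-fold and not in 1 direction. MREG, melanoregulin, whose loss in mice partly restores the coat colour of Myo5a mutants, was higher in WWOX cells by 0.57 (adjusted p = 0.00181). RAB38, a small GTPase that sorts enzymes to the melanosome, was higher by 0.36 (adjusted p = 0.0218). RAB32, which shares much of its work, was lower, at -0.43 (adjusted p = 0.0115), with 11.2 ± 0.163 in WWOX, 11.7 ± 0.0934 in WFPA and 11.5 ± 0.0586 in EV cells (SD, n = 3 each).

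**Figure D4:**
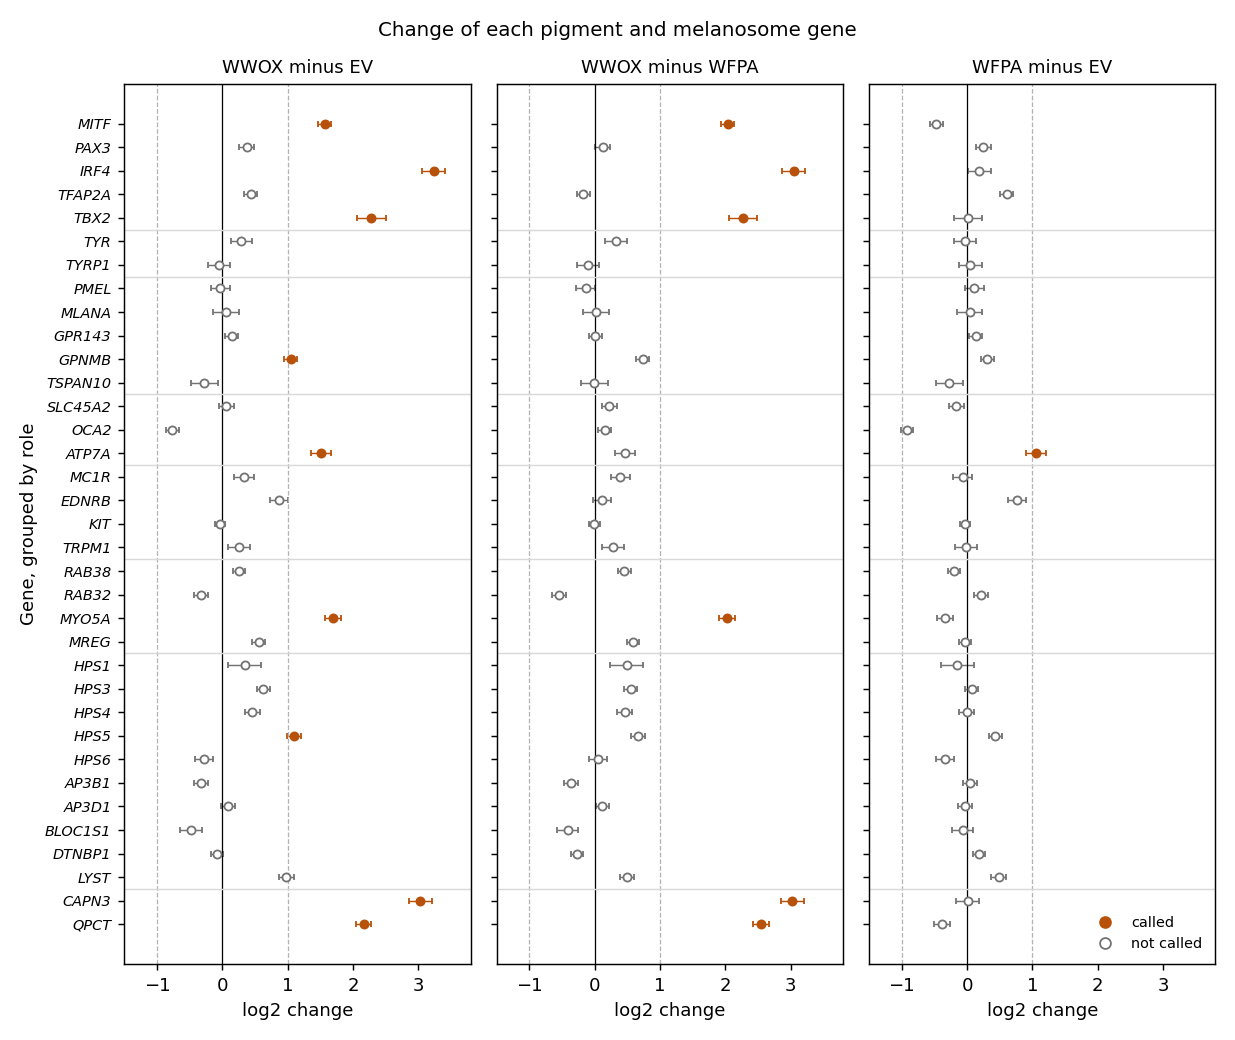
Log2 change of each of the 35 measured genes (rows, grouped by role), as WWOX minus EV, WWOX minus WFPA and WFPA minus EV, with the standard error of limma as the bar and dashed lines at 2-fold. Filled points passed both limits: 9, 6 and 1 genes, all higher.

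Of the 10 genes of the complexes that build the organelle, 1 was called higher, in WWOX against EV alone, where 2.11% of all genes were called higher. HPS3, HPS5 and HPS6 form the complex BLOC-2, which directs cargo to the maturing melanosome. HPS5 read 10.64, 10.67 and 10.49 in WWOX cells, 9.88, 9.88 and 10.05 in WFPA cells, and 9.39, 9.47 and 9.64 in EV cells. The 3 groups did not overlap. HPS5 was called against EV (1.10, SE 0.102, adjusted p = 0.000171), and passed at less than 2-fold against WFPA (0.66, adjusted p = 0.00253) and in WFPA against EV (0.44, adjusted p = 0.0376). Against the mean of EV and WFPA, HPS5 was higher by 0.88 (adjusted p = 0.000213) and HPS3 by 0.59 (adjusted p = 0.00187), and HPS6 changed by -0.11 (adjusted p = 0.557).

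BLOC-3 joins HPS1 and HPS4 and switches on RAB32 and RAB38. HPS4 was higher in WWOX cells by 0.46 (adjusted p = 0.0148). HPS1 gave 0.42 (adjusted p = 0.229), with WWOX replicate 3 at 9.74 and the other WWOX arrays at 8.64 and 8.74. Among the genes of this organelle machinery, LYST, the trafficking regulator of Chediak-Higashi syndrome, came closest to the limit without passing it. It was at 0.98 in WWOX against EV (adjusted p = 0.000627) and at 0.49 in WFPA against EV (adjusted p = 0.0359), with means of 9.0 ± 0.120 in WWOX, 8.51 ± 0.0764 in WFPA and 8.02 ± 0.176 in EV cells (SD, n = 3 each). The other 3 LYST probe sets did not pass in any comparison.

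AP3B1, the beta subunit of the adaptor AP-3, was lower in WWOX cells, at -0.35 (adjusted p = 0.0334) and at -0.67 at its second probe set. AP3D1, the delta subunit of AP-3, changed by 0.10 (adjusted p = 0.485). In BLOC-1, BLOC1S1 changed by -0.45 (adjusted p = 0.0663), with WWOX replicate 3 at 11.66 and the other 2 WWOX arrays at 12.26. DTNBP1, dysbindin, changed by -0.18 (adjusted p = 0.161). Its second probe set was lower in WWOX cells, at -0.40 (adjusted p = 0.0161), and its dimmest gave -0.19 (adjusted p = 0.395).

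By level, 27 of the 35 genes had a group mean over the array median in WWOX cells, and 25 did in WFPA cells and in EV cells. In each group 2 lay under the lower quartile, TYRP1 and KIT.

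Genes around the pigment programme that are not on the list were read from 4 further lists. Of 32 measured ligands, receptors and regulators upstream of MITF (37 listed), 3 were called higher and 0 lower in WWOX cells against the mean of EV and WFPA, with a median change of 0.19, where 1.94% of all genes were called higher and 2.06% lower. The 3 were transcription factors. SOX10, which activates the MITF gene, read 10.53, 10.44 and 10.67 in WWOX cells, 5.44, 5.30 and 5.26 in WFPA cells, and 4.67, 5.05 and 4.96 in EV cells, a change of 5.43 (SE 0.103, adjusted p = 3.87e-08), and its second probe set gave 3.00 (SE 0.116, adjusted p = 6.11e-07). POU3F2, also known as BRN2, changed by 2.87 (adjusted p = 0.000155) and SNAI2 by 1.92 (adjusted p = 2.58e-05), and in WFPA against EV SNAI2 was called too (1.68, adjusted p = 0.000432).

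Of 22 measured other targets of MITF (23 listed), 2 were called higher and 0 lower, with a median of 0.26 (1.94% and 2.06% of all genes). These were ABCB5, a drug exporter of melanoma cells (3.49, adjusted p = 4.95e-05), and ST3GAL6, a sialyltransferase (1.35, adjusted p = 8.14e-06). The ABCB5 means of 4.04 in WFPA and 3.57 in EV cells lie under the lower quartile, so that its size is uncertain. Against EV, 5 of the 22 were called in WWOX cells and 2 in WFPA cells, all higher, where 2.11% and 1.53% of all genes were called higher. Among them SLC1A4, a neutral amino acid transporter, and BEST1, a chloride channel, were called higher in both WWOX (1.63 and 1.22) and WFPA (1.46 and 1.62) against EV.

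Of 37 measured other genes of melanosomes and pigment transport (40 listed), 1 was called higher and 1 lower, with a median of 0.07. These are 2.70% each way, near the 1.94% higher and 2.06% lower of all genes. MFSD12, a lysosome and melanosome transporter that affects skin colour, was higher by 1.71 (adjusted p = 8.74e-06). SLC7A11, the cystine importer whose loss lightens coat colour in the mouse, changed by -1.74 (adjusted p = 4.46e-06). It averaged 8.18 ± 0.172 in WWOX, 11.2 ± 0.107 in WFPA and 8.61 ± 0.05 in EV cells (SD, n = 3 each), so WFPA cells stood apart and WWOX lay -0.43 from EV (adjusted p = 0.0319).

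The last list held 18 genes of dedifferentiated melanoma cells, which are high where the pigment programme is low, and 17 were measured. In WWOX against the mean of EV and WFPA, 0 were called higher and 2 lower, with a median of -0.24 (1.94% and 2.06% of all genes). INHBA, a subunit of activin, changed by -2.67 (adjusted p = 5.03e-06). WNT5A, a non-canonical Wnt ligand, changed by -1.34 (adjusted p = 0.0127), with means of 3.37 in WWOX, 5.93 in WFPA and 3.50 in EV cells. Its change in WWOX against EV was -0.13 (adjusted p = 0.847). Of the 17 genes, 1 was called higher and 2 lower in WWOX against EV (2.11% and 1.79% of all genes). In WWOX against WFPA, 0 were called higher and 3 lower (2.01% and 2.71%). In WFPA against EV, 3 were called higher and 1 lower (1.53% and 0.694%).

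Within a group the arrays correlated at 0.987 to 0.996 over all probe sets. Summed on the linear scale, the melanocytic markers (8 of 9 measured) gave 14.24 to 14.44 in WWOX, 12.44 to 12.52 in WFPA and 12.63 to 12.72 in EV cells on the log2 scale. A linear sum is weighted to the brightest genes. MITF, itself one of the pigment genes above, averaged 13.43 in WWOX, 11.40 in WFPA and 11.87 in EV cells. S100B averaged 12.23, 6.31 and 5.55 in the same order of groups. The called markers were MITF, SOX10 and S100B. TYR, TYRP1, PMEL, MLANA and GPR143 were not called in any comparison, and TYRP1 was under the lower quartile in all groups. The breast luminal markers (6 of 6 measured) gave 10.40 to 10.41 in WWOX, 11.04 to 11.17 in WFPA and 10.62 to 10.90 in EV cells, with PGR and FOXA1 under the lower quartile in all groups. Of these only GATA3 was called against the mean of EV and WFPA (-1.13), with means of 6.76 in WWOX, 8.69 in WFPA and 7.10 in EV cells. Glial markers (5 of 7) gave 12.70 to 12.97, 9.73 to 9.79 and 9.31 to 9.49 in the same order of groups. They share S100B and SOX10 with the melanocytic markers. S100B, SOX10 and ERBB3 were called higher in WWOX against the mean of EV and WFPA, and GFAP and MBP were not. Fibroblast markers (9 of 9) gave 9.55 to 9.61, 9.11 to 9.19 and 8.77 to 8.96. Against the mean of EV and WFPA, LUM (4.36), FAP (1.63) and COL1A2 (1.35) were called higher, and the other fibroblast markers were not called. The WFPA and EV means of LUM (2.07 and 2.03) and FAP (4.10 and 4.19) lie under the lower quartile, so those sizes are uncertain. COL1A2 was also called higher in WFPA against EV (1.52). Epithelial markers (9 of 9) gave 12.89 to 12.96, 13.72 to 13.88 and 13.87 to 13.98 in the same order of groups. KRT18 (-1.52), KRT8 (-1.09) and CDH1 (-1.68) were called lower against the mean of EV and WFPA, and the other epithelial markers were not called. CDH1 averaged 4.54 in WWOX, 7.78 in WFPA and 4.67 in EV cells, so WFPA cells stood apart. Leukocyte markers (5 of 7) gave 7.41 to 7.70, 8.26 to 8.54 and 9.93 to 10.21, of which PTPRC gave 4.88 to 5.97, 7.51 to 7.88 and 9.72 to 10.04, with CD3E under the lower quartile in all groups. The part of these differences in the pigment gene results was not tested.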

How the data were processed

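Log2 intensities, made by the authors in Partek Genomics Suite, were taken as deposited; the background and normalization method is not given in the sources used here. No further normalization was applied. Of 54675 probe sets, 62 controls were left out; 41091 carry 1 gene in the platform annotation, 1801 several and 11721 none. A mean per group was fitted to 54613 probe sets in limma 3.58.1 (R 4.3.3, moderated variances), with 4 comparisons and Benjamini-Hochberg adjustment over all probe sets. The fit was tested on simulated data. Intervals are 95% and unadjusted, and the number of arrays limits the precision. Members and lists were chosen with earlier results of these data known. Every listed gene is accounted for; called genes and 7 preset ones have a value on every array where measured, and context lists name at most their 4 largest calls and SOX10 (SLC1A4 and BEST1 were named after their values were seen). Alternatives were other scalings, filters, probe set rules, variance priors and limits, EV and WFPA as 1 group, a replicate block, and each array left out. Same-numbered arrays did not deviate together, so numbers were not taken as pairs. Figures were drawn in Python 3.11.15 with matplotlib 3.10.9. No protein sequences were used.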

Additional observations from a re-analysis of the deposited data

How the results depend on the processing

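Single genes were followed across the alternatives only where the reported fit called them, besides TYR, TYRP1, PMEL, MLANA, MC1R, MITF and the WWOX gene. None of these changed direction where called in the reported fit or in the alternative. Changes of sign in genes called in neither were not counted, and other genes called only in an alternative were not followed. The runs with Bonferroni adjustment and with no fold limit reuse the reported fit, so no direction could change there. Of 170 counts of pigment genes 158 were within 1.5 times of the reported count. The 170 include the counts of lower genes, reported as 0 in all 4 comparisons, where a further 0 is a match with little content. With Bonferroni adjustment and a 4-fold limit, the limits in the methods, 3 pigment genes were higher in WWOX against EV and 0 in WFPA against EV, the calls of MITF and MYO5A ended in WWOX against the mean of EV and WFPA, and the WWOX gene missed the limit at 1.07 against that mean, 1.72 against EV and 1.30 in WFPA against EV. With no fold limit the higher and lower pigment genes were 15 and 3 in WWOX against the mean, 15 and 1 against EV, 13 and 2 against WFPA, and 5 and 2 in WFPA against EV. With the probe set of largest variance 2 were higher in WFPA against EV. With the mean of all probe sets MYO5A (0.83) and ATP7A (0.95) were under 2-fold in WWOX against EV, and ATP7A in WFPA against EV (0.68). With arrays left out in turn, the higher genes were 6 to 7 against the mean, 9 to 10 against EV, 6 against WFPA, and 0 to 1 in WFPA against EV (0 without WFPA replicate 1). The WWOX gene was then at 0.98 to 1.23 against the mean, under 2-fold without WWOX replicate 1 or 2. Same-numbered arrays deviated with correlations of -0.0521 to 0.0348, so the block has no basis in the samples; with the replicate block the higher genes were 6, 9, 6 and 1 in the 4 comparisons and the lower genes 0 in each. Other scalings moved the median of all genes by at most 0.0175. Filters on dim probe sets left 33 and 27 of the 35 genes. The cause of these shifts was not tested. Apart from the run with no fold limit, the shares of all genes called under the alternatives are not given here. Counts of pigment genes under those alternatives therefore have no background beside them.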
